A study of Mus musculus with 21 samples.

Results

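The genes described here encode subunits of the 5 complexes of oxidative phosphorylation. They were chosen by symbol: probe sets that list 1 gene symbol, with a symbol that starts Nduf followed by a, b, c, s or v and a digit, is Sdha to Sdhd, or starts Uqcr, Cox4 to Cox8 or Atp5. This gave 81 of 18194 genes, of which 33 belong to complex I, 4 to complex II, 8 to complex III, 17 to complex IV and 17 to complex V. Ndufa4 was counted with complex IV, where its protein is found. Cox7a2l, a factor that joins complexes into supercomplexes, and Ndufa4l2, a hypoxia-inducible relative of Ndufa4, matched the rule without being standard subunits and were kept apart. The cells were mouse 3T3-L1 cells, a fibroblast line that turns into fat cells in culture, used 14 days into differentiation. The treated groups had received dexamethasone (Dex, a synthetic glucocorticoid) at 20 nM for 2 h, 24 h or 6 d, or tumor necrosis factor alpha (TNF, an inflammatory cytokine, at a dose that the labels do not give) for 2 h, 24 h or 6 d. The control group (0 h) consisted of untreated differentiated cells, and each of the 7 groups had 3 arrays labelled as biological replicates. The design follows cells through early, intermediate and late stages of insulin resistance, and all treated groups share this 1 control group. The labels name no untreated group at 2 h, 24 h or 6 d. In comparisons with control, treatment and time since the 0 h control therefore cannot be told apart.

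Oxidative phosphorylation takes electrons from NADH at complex I and from succinate at complex II, passes them through complex III to oxygen at complex IV, and uses the proton gradient so built to make ATP at complex V. Most subunits are encoded in the nucleus, and only those are among these genes. Some subunits of complex IV exist as isoforms: Cox7a1, Cox8b and Cox6a2 are the forms of heart and skeletal muscle, and Cox7a1 and Cox8b are also high in brown fat of mice, whereas Cox7a2, Cox8a and Cox6a1 are made in most tissues.

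Levels are the deposited log2 values of a 3-prime expression array, normalised by robust multi-array averaging (RMA), so that 1 unit is a factor of 2. Levels of different genes come from different probe sets and are not compared with each other. Genes entered the test where 3 or more arrays exceeded a level of 5.34 (the median of the whole table), which 79 of the 81 did. Cox7b2 (3.88 to 4.01 in control) and Ndufb4 (4.35 to 4.58 in control) did not pass. The 79 tested genes had a median control level of 13.16, and 67 of them lay above 12, while the highest value in the whole table was 15.06. A gene is called higher or lower below an adjusted p of 0.05 in 1 limma fit, with Benjamini-Hochberg adjustment over all 12156 genes tested. These p-values measure the spread between the arrays of a group.

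One array stood apart and was left out of the main values: TNF 6 d replicate 2 had a 3-prime minus 5-prime difference of control probe sets, a sign of RNA integrity, of 2.002, against 0.021 to 0.777 on the other 20 arrays. Its hybridisation controls averaged 14.09, against 10.31 to 11.25 elsewhere. The TNF 6 d group therefore holds 2 arrays here, and counts from all 21 arrays, where this array also widens the shared spread, are given beside each count. TNF 24 h replicate 3 had a difference of 0.683, against 0.11 and 0.163 on the other TNF 24 h arrays, and results at 24 h of TNF are given with and without it. No array duplicated another.

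The cells carried the markers of fat cells in all 7 groups. Of 10 adipocyte markers measured, 9 lay above the threshold in each group, and their mean level per array was 11.63 to 11.74 at 2 h, 11.9 to 12.04 at 24 h and 11.69 to 11.9 at 6 d of Dex, 11.36 to 11.53 at 2 h, 10.9 to 11.33 at 24 h and 10.63 to 11.3 at 6 d of TNF, and 11.87 to 11.9 in control (these marker ranges take all 21 arrays). Preadipocyte markers, with 7 of 8 above the threshold in each group, averaged 9.37 to 9.62 at 6 d of Dex and 10.56 to 10.94 at 6 d of TNF, against 10.25 to 10.49 in control. Of 8 brown and beige fat markers, 4 lay above the threshold in each group (5 at 6 d of Dex), with array means of 5.72 to 6.23. In control they included Ppargc1a (9.84), Pank1 (9.69) and Cidea (6.47). At 6 d of TNF Cidea averaged 4.47, below the threshold, while Prdm16 (5.47) lay above it. Ucp1, the uncoupling protein that defines brown fat, had group means of 3.73 to 3.97, below the threshold in all 7 groups. Of 11 muscle markers, 4 lay above the threshold in each group, with array means of 4.76 to 5.14 in all, and Myod1 and Myh1 stayed below it. Macrophage markers averaged 5.3 to 5.5 at 24 h of TNF, against 4.81 to 4.96 in control. Adgre1, Ptprc, Itgam and Mrc1 lay below the threshold in every group mean, and Csf1r (6.2 to 6.96) and Cd14 (6.38 to 9.11) above it. Cd68 averaged 6.78 at 24 h of TNF, against 5.21 in control. In these bulk samples, fewer cells of a type and less RNA per cell cannot be told apart.

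The start-site windows of 4 genes are shown because their products illustrate the contrasts described below: Cox7a1 and its partner isoform Cox7a2, which moved by very different amounts, and Uqcrc1 and Sdhd, which hold motifs of factors tied to mitochondrial genes. The windows are RefSeq's, build GRCm38.p6, from 250 bases before to 50 bases after the start, and read 5′ to 3′ on the gene's strand. They lie at chr7:30183921-30184220 (plus strand) for Cox7a1, chr9:79759804-79760103 (minus strand) for Cox7a2, chr9:108936398-108936697 (plus strand) for Uqcrc1 and chr9:50603800-50604099 (minus strand) for Sdhd. Capitals mark matches to the motifs searched.
Cox7a1: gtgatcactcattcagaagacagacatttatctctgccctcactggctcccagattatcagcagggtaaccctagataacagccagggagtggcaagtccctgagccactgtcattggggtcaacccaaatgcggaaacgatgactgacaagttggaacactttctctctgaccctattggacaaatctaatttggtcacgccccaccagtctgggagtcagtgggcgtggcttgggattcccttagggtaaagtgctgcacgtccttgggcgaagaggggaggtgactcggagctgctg
Cox7a2: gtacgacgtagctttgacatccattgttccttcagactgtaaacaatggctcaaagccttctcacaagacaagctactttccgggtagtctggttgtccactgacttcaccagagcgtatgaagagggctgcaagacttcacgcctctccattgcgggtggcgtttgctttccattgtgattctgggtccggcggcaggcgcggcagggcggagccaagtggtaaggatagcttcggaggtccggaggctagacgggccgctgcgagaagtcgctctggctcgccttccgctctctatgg
Uqcrc1: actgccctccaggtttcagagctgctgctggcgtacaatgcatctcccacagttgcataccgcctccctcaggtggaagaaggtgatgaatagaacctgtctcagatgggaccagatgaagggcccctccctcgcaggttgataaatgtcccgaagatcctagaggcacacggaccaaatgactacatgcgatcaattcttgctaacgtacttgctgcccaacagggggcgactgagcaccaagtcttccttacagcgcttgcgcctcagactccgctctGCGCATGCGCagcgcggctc
Sdhd: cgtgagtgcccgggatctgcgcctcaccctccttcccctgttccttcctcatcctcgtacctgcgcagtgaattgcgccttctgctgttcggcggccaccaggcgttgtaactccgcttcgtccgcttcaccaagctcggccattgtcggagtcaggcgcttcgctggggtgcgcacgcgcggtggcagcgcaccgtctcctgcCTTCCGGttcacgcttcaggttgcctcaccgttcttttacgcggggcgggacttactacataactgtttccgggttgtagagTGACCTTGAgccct

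A window was found for 66 of the 81 genes and for 14369 genes of the array in all, and motifs were searched on both strands. The palindromic motif of NRF1, a factor known to drive respiratory chain genes, which the capitals show in the Uqcrc1 window, was in 4 of the 66 (6.06%), against 1.75% of all windows, and the 4 were Uqcrc1, Cox6a1, Atp5g2 and Atp5k. The motif TCAAGGTCA of the estrogen-related receptors was in 2 of the 66 (3.03%), Sdhd and Atp5g3, against 0.404% of all. The ETS motif CCGGAAG, bound by GABP among others, was in 17 (25.8%) against 15%, and the YY1 motif was in 3 (4.54%), Ndufa9, Ndufs4 and Ndufs7, against 1.26%. A full-site motif of the glucocorticoid receptor and one of NF-kB were in none of the 66, against 0.0139% and 0.23% of all. A match describes letters in a window and not binding, and overlaps between motifs were not removed.

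Under Dex most subunit genes stayed within the test's limits. Cox7a1 and Cox8b, muscle and brown fat isoforms of complex IV, stood out among those that fell. At 2 h of Dex, 0 of the 79 genes were called, against 7.12% of all genes tested, and 0 were called with 21 arrays, against 2.48%. At an unadjusted p below 0.05, 2 genes were lower, the estimated medians of the complexes were -0.05 to -0.02 log2, and that of all genes was -0.02. At 24 h of Dex, 1 gene was higher and 5 were lower, against 13.2% of all genes called (6.39% higher and 6.79% lower), and with 21 arrays 0 were higher and 1 was lower, against 2.06% and 2.11% of all genes. After 6 d of Dex, 1 was higher and 11 were lower, against 24% of all genes called (10.4% higher and 13.5% lower), and with 21 arrays 0 were higher and 3 were lower, against 3.22% and 5.08%. These 12 genes are 15.2% of the 79, and with array weights, under which 5648 of 12156 genes were called, the number was 38. The medians of the 5 complexes at 6 d of Dex lay between -0.11 and -0.01, beside -0.02 over all genes.

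**Figure D1:**
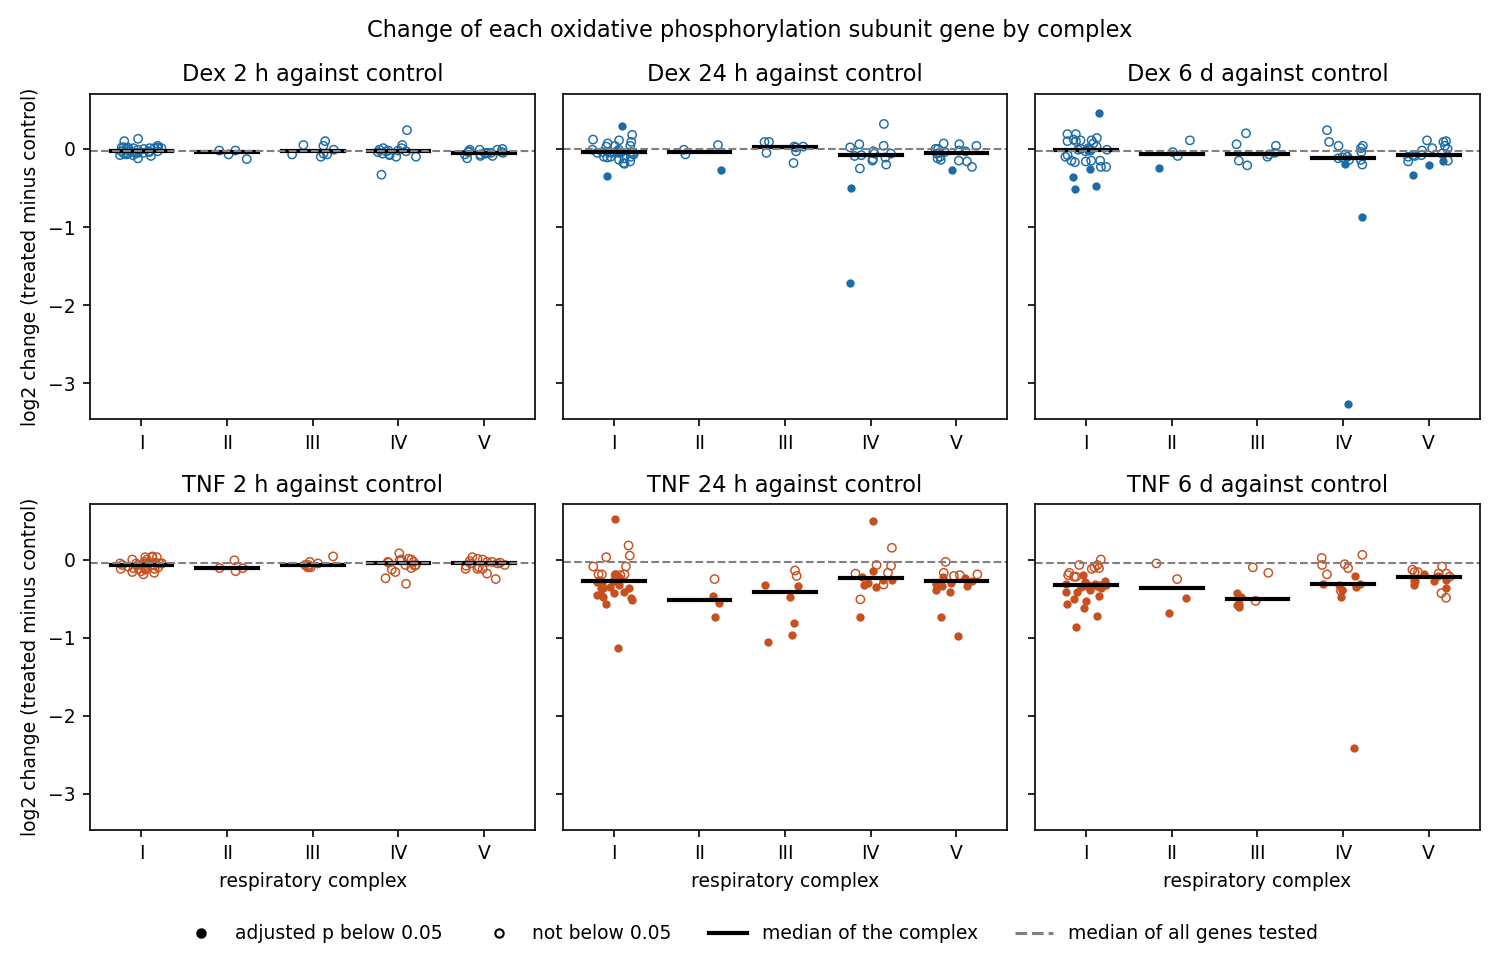
Each point is 1 subunit gene, placed by complex (horizontal axis) and by its log2 change, treated minus control (vertical axis), with the fit on 20 arrays; filled points have an adjusted p below 0.05, black bars are the medians of the complexes and the dashed line is the median of all 12156 genes tested. At 24 h of TNF all 5 black bars lie below the dashed line, between -0.52 and -0.24, while under Dex the low points are those of Cox7a1, at -1.72 and -3.27.

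Cox7a1, the muscle and brown fat isoform of a small complex IV subunit, fell most among the 79 genes at both later times of Dex. Its level was 11.17 to 11.48 in control, 9.35 to 9.78 at 24 h of Dex and 7.7 to 8.52 at 6 d of Dex, with no overlap between these groups. This is 3.29-fold lower at 24 h (log2 change -1.72, SE 0.19, adjusted p = 1.97e-06 by limma) and 9.62-fold lower at 6 d (-3.27, SE 0.19, adjusted p = 1.02e-10). The level at 6 d was also lower than at 24 h of Dex (-1.55, adjusted p = 4.32e-05 by limma). Both changes against control kept their calls with 21 arrays, with adjusted p-values of 0.0253 and 3.69e-05, while the change between 6 d and 24 h did not.

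Cox8b, the matching isoform of subunit 8, fell by less. It lay at 12.52, 12.62 and 12.54 at 24 h of Dex, against 13.05, 13.12 and 13.02 in control, and at 12.26, 12.1 and 12.22 at 6 d. Both treated groups lay wholly below control. The log2 changes were -0.50 (SE 0.09, adjusted p = 0.000318 by limma) at 24 h and -0.87 (SE 0.09, adjusted p = 1.83e-07) at 6 d. With 21 arrays the change at 24 h had an adjusted p of 0.0719. These were also the genes called between 6 d and 24 h of Dex, where 0 genes were higher and 2 were lower, against 4.5% of all genes called (1.12% higher and 3.38% lower). With 21 arrays 0 were called, against 0.683%. Cox8b was lower at 6 d than at 24 h by -0.37 (adjusted p = 0.0148 by limma).

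The other genes called under Dex changed by 0.51 log2 units at most. Ndufa5, an accessory subunit of complex I, was the gene that rose: it lay at 12.4, 12.38 and 12.37 at 24 h and at 12.49, 12.55 and 12.6 at 6 d of Dex, against 11.96, 12.09 and 12.21 in control. Its changes were 0.29 (adjusted p = 0.0157) and 0.46 (adjusted p = 0.000196 by limma), and every treated array lay above every control array. Ndufa3, also an accessory subunit of complex I, fell by 0.35 at 24 h and by 0.48 at 6 d, and Ndufs5, another one, fell by 0.51 at 6 d. Sdhb, the iron-sulphur subunit of complex II, fell by 0.27 and 0.24, and Atp5e, the epsilon subunit of the F1 part of complex V, fell by 0.27 and 0.33. At 6 d alone Ndufv3 fell by 0.36, Ndufb3 by 0.26, Atp5k by 0.20, Cox8a by 0.19 and Atp5j2 by 0.15. None of the 8 genes of complex III and none of the 6 tested core subunits of complex I was called at either time.

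Of the calls under Dex, Cox7a1 and Cox8b at 24 h, and these with Atp5e, Ndufa3, Ndufa5, Ndufs5 and Ndufv3 at 6 d, kept them in each fit that left out 1 array of the groups compared. Dex 6 d replicate 2 had a 3-prime minus 5-prime difference of 0.777, against 0.112 and 0.021 on its mates, and lay lowest of the 3 for Ndufs5 (11.8, beside 12.16 and 12.17) and for Ndufa3 (12.53, beside 12.78 and 12.81). Its part in these changes was not tested beyond the fits without it.

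Under TNF, subunit genes of all 5 complexes were lower at 24 h and 6 d, with core subunits among the largest changes. At 2 h of TNF, 0 of the 79 genes were called, against 10.7% of all genes tested, and 0 with 21 arrays, against 3.82%, while 2 were lower at an unadjusted p below 0.05. With array weights 27 were called, and 4854 of 12156 genes. After 24 h of TNF, 51 genes were lower and 2 were higher, against 25.6% of all genes called (12.4% lower and 13.2% higher). With 21 arrays 14 were lower and 0 higher, against 3.27% and 5.41% of all genes. Without TNF 24 h replicate 3, 59 were lower and 0 higher, against 11.7% called lower and 11.3% called higher. The median change of the 79 genes was -0.27 log2, beside -0.03 over all genes, and without that array it was -0.35 beside -0.05.

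By complex, the counts at 24 h of TNF were as follows. In complex I, 21 of 32 genes were lower and 1 higher (median -0.28). In complex II, 3 of 4 were lower (median -0.52), and in complex III, 6 of 8 were lower (median -0.41). In complex IV, 8 of 16 were lower and 1 higher (median -0.24), and in complex V, 12 of 17 were lower (median -0.27). With 21 arrays the numbers called lower were 5, 1, 2, 2 and 4 for complexes I to V, and without replicate 3 they were 24, 3, 6, 11 and 14. Every complex thus had a larger share of its genes called lower than the share of all genes, in each of these fits. Differences between the complexes were not tested, since they were described by counts and medians.

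In complex I, Ndufs1, the largest iron-sulphur subunit of the arm that takes up electrons, fell most of the 79 genes. Its level was 10.71, 10.79 and 10.55 at 24 h of TNF, against 11.76, 11.67 and 12 in control, and the groups lay apart by more than the spread in either. The log2 change was -1.13 (SE 0.10, adjusted p = 5.48e-08 by limma), 2.18-fold lower, and it was -1.06 without replicate 3 and called with 21 arrays (adjusted p = 0.0302). Of the 6 tested core subunits of complex I, 5 were lower, among them Ndufs3 (-0.49), Ndufv1 (-0.43), the subunit that binds NADH, Ndufs7 (-0.37) and Ndufv2 (-0.30). Ndufs8, an iron-sulphur core subunit, had a change of 0.03 (adjusted p = 0.845) and was not called. Of the 26 tested accessory subunits, 16 were lower, led by Ndufa9 (-0.57) and Ndufb10 (-0.52).

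Ndufs7, an iron-sulphur subunit next to the ubiquinone site, shows how much replicate 3 could differ from its mates. It lay at 12.2, 12.39 and 12.79 at 24 h of TNF, against 12.81, 12.85 and 12.85 in control. Replicate 3 was close to control and the other arrays were lower. Ndufb1, an accessory subunit, was the complex I gene called higher (0.52), with levels of 8.29, 8.42 and 9.1 against 8.13, 8.17 and 7.96 in control, and it was not called without replicate 3 (0.27).

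In complex II, which also takes part in the citric acid cycle, Sdha, the subunit that oxidises succinate, lay at 12.09, 12.07 and 11.66 at 24 h of TNF, against 12.56, 12.58 and 12.89 in control. It fell by 0.74 (SE 0.10, adjusted p = 1.65e-05 by limma), and by 0.60 without replicate 3. Sdhb fell by 0.47 and Sdhd, a membrane anchor, fell by 0.56. Sdhc, the other anchor, had a change of -0.25 with an adjusted p of 0.0508 and was not called.

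In complex III, Uqcrc2, a core protein of the matrix side, lay at 12.03, 12.04 and 11 at 24 h of TNF, against 12.77, 12.7 and 12.77 in control. All 3 treated arrays were below control, and replicate 3 was about 1 log2 unit below its mates. The change was -1.06 (SE 0.17, adjusted p = 7.24e-05 by limma) with this array and -0.71 (SE 0.06, adjusted p = 6.75e-08) without it. Uqcrfs1, the Rieske iron-sulphur protein, fell by 0.97 with it and 0.70 without it, and Uqcrc1, the partner of Uqcrc2, by 0.81 and 0.49. The smaller subunits Uqcr11, Uqcrq and Uqcr10 fell by 0.48, 0.34 and 0.32, while Uqcrh (-0.21) and Uqcrb (-0.14) were not called.

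In complex IV, Cox5b, a subunit on the matrix side, lay at 13.75, 13.75 and 13.93 at 24 h of TNF, against 14.18, 14.15 and 14.16 in control, and fell by 0.35 (SE 0.06, adjusted p = 0.000125 by limma). Its neighbour Cox5a had a change of -0.07 and was not called. Among the widely expressed isoforms, Cox8a fell by 0.32, Cox6b1 by 0.30, Cox4i1 by 0.26, Cox7a2 by 0.26 and Cox6a1 by 0.15, and Ndufa4 fell by 0.22. Cox7c fell by 0.73, but its probe set was dim (6.71 in control, beside a threshold of 5.34). Cox6a2, the muscle isoform of subunit 6a, was called higher at 7.46, 7.58 and 8.33 against 7.22, 7.43 and 7.25 in control, and its change of 0.49 was 0.22 and not called without replicate 3.

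In complex V, all 5 genes of the F1 part, which holds the catalytic sites, were lower. Atp5a1, the alpha subunit, lay at 12.83, 12.84 and 11.84 at 24 h of TNF, against 13.4, 13.34 and 13.72 in control, and the groups did not overlap. It fell by 0.98 (SE 0.17, adjusted p = 0.000229 by limma) with replicate 3, and by 0.65 without it. The catalytic beta subunit Atp5b fell by 0.73 with and 0.43 without that array, and the delta, epsilon and gamma subunits Atp5d, Atp5e and Atp5c1 by 0.39, 0.34 and 0.31. Of the genes Atp5g1, Atp5g2 and Atp5g3, which encode the same membrane ring subunit, Atp5g3 fell by 0.24, and Atp5g1 (-0.21) and Atp5g2 (-0.03) were not called. Of the 9 genes of the stalk and membrane part, 6 were lower, led by Atp5o (-0.41).

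**Figure D2:**
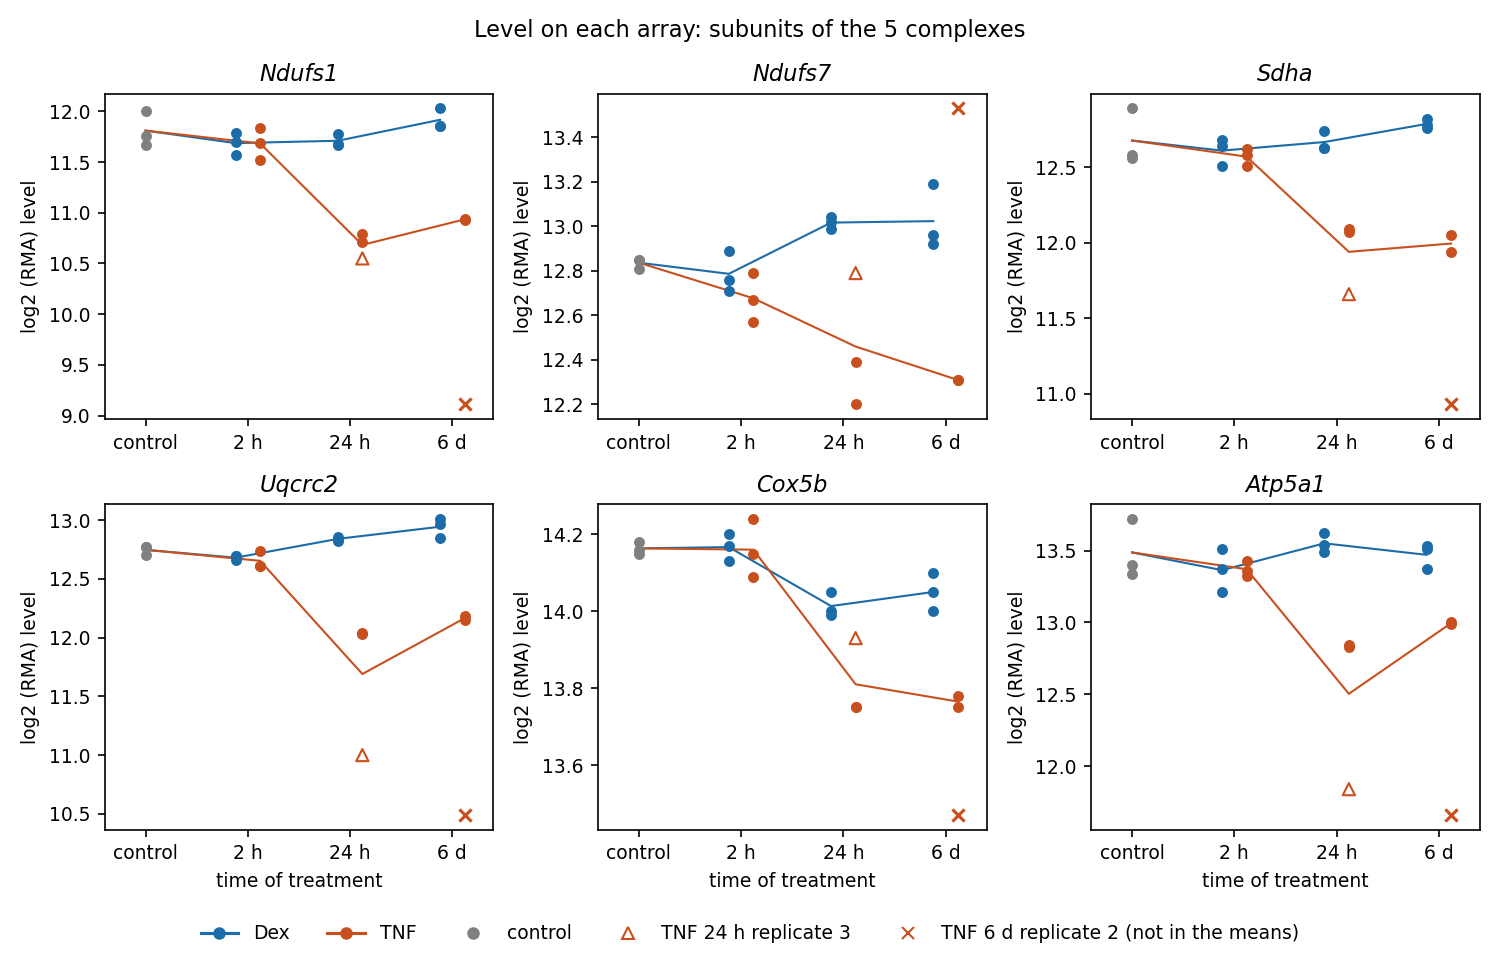
Log2 (RMA) level (vertical axis) of 1 or 2 genes from each complex on every array, by time of treatment (horizontal axis); lines join group means, open triangles are TNF 24 h replicate 3 and crosses are TNF 6 d replicate 2, which is not in the means. Ndufs1 lies at 10.55 to 10.79 at 24 h of TNF and at 11.67 to 12 in control, and for Ndufs7 the triangle (12.79) and the cross (13.53) lie above their mates.

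Leaving out replicate 3 moved 6 called changes at 24 h of TNF by more than 1.5 times: Atp5a1, Uqcrc1, Atp5b, Ndufa9, Cox6a2 and Ndufb1. The first 4 remained called lower, and the last pair was no longer called. Of the 51 genes lower with this array, 49 were also lower without it. In fits that left out each array of the compared groups in turn, 41 of the 53 calls were kept every time, all of them lower. Where genes called at 24 h of TNF had other probe sets, 48 of 49 moved in the same direction, the exception being a dim one of Ndufb2 (5.88 in control). At 6 d of TNF 38 of 41 did. Bright exceptions were those of Atp5o (0.08, beside -0.28 for the one used) and Cox6c (0, beside -0.33). Their control levels were 12.12 and 12.51. The other exception was one of Sdha (0.13, with a control level of 5.01, below the threshold).

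**Figure D3:**
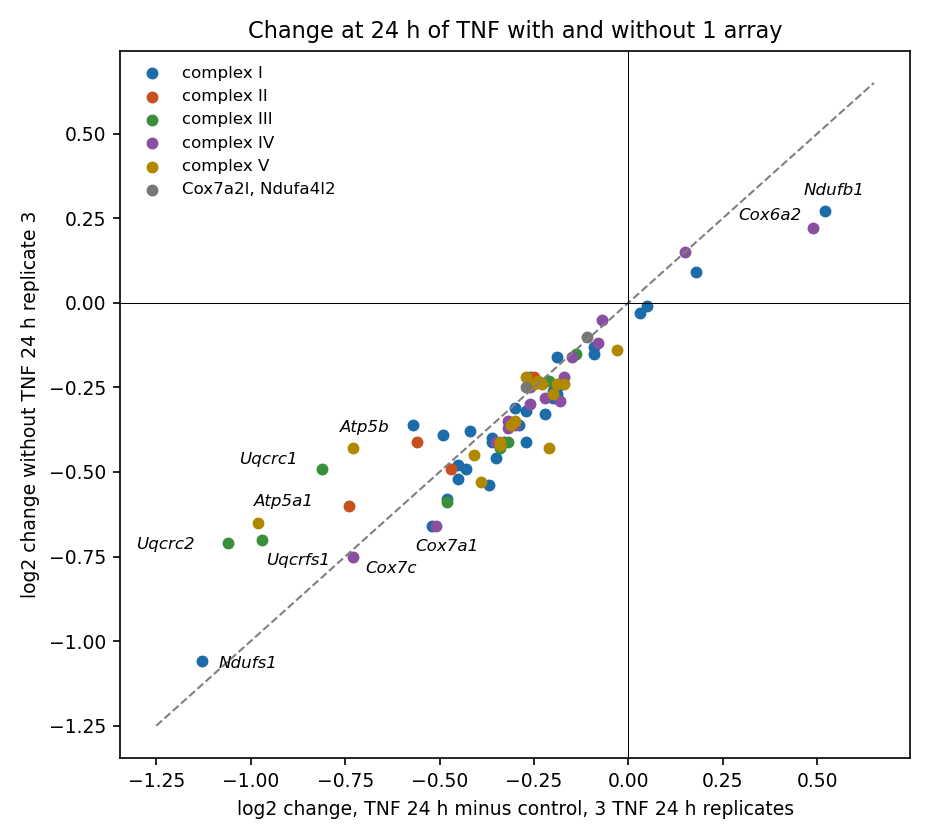
Log2 change at 24 h of TNF, treated minus control, of each subunit gene with all 3 TNF 24 h arrays (horizontal axis) and without replicate 3 (vertical axis), coloured by complex; the dashed line marks equal values. Uqcrc2, Uqcrfs1, Uqcrc1, Atp5a1 and Atp5b lie above the line (smaller falls without the array), while most genes lie just below it.

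After 6 d of TNF, with 2 arrays, 46 of the 79 genes were lower and 0 higher, against 20.5% of all genes called (9.93% lower and 10.5% higher). With 21 arrays 46 were lower and 0 higher, against 10.7% and 4.52% of all genes, and 41 genes were lower in both fits. By complex, 22 of 32 genes of complex I, 2 of 4 of complex II, 5 of 8 of complex III, 9 of 16 of complex IV and 8 of 17 of complex V were lower. The medians were -0.33, -0.37, -0.50, -0.31 and -0.22, beside -0.05 over all genes. With 21 arrays the counts were 20, 2, 6, 10 and 8, and the medians -0.59, -0.98, -0.82, -0.50 and -0.46, beside -0.23 over all genes. With the TNF 6 d group at 2 arrays, fits that left out 1 of them called 25 genes at the fewest, and 20 of the 46 calls were kept in every such fit.

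**Figure D4:**
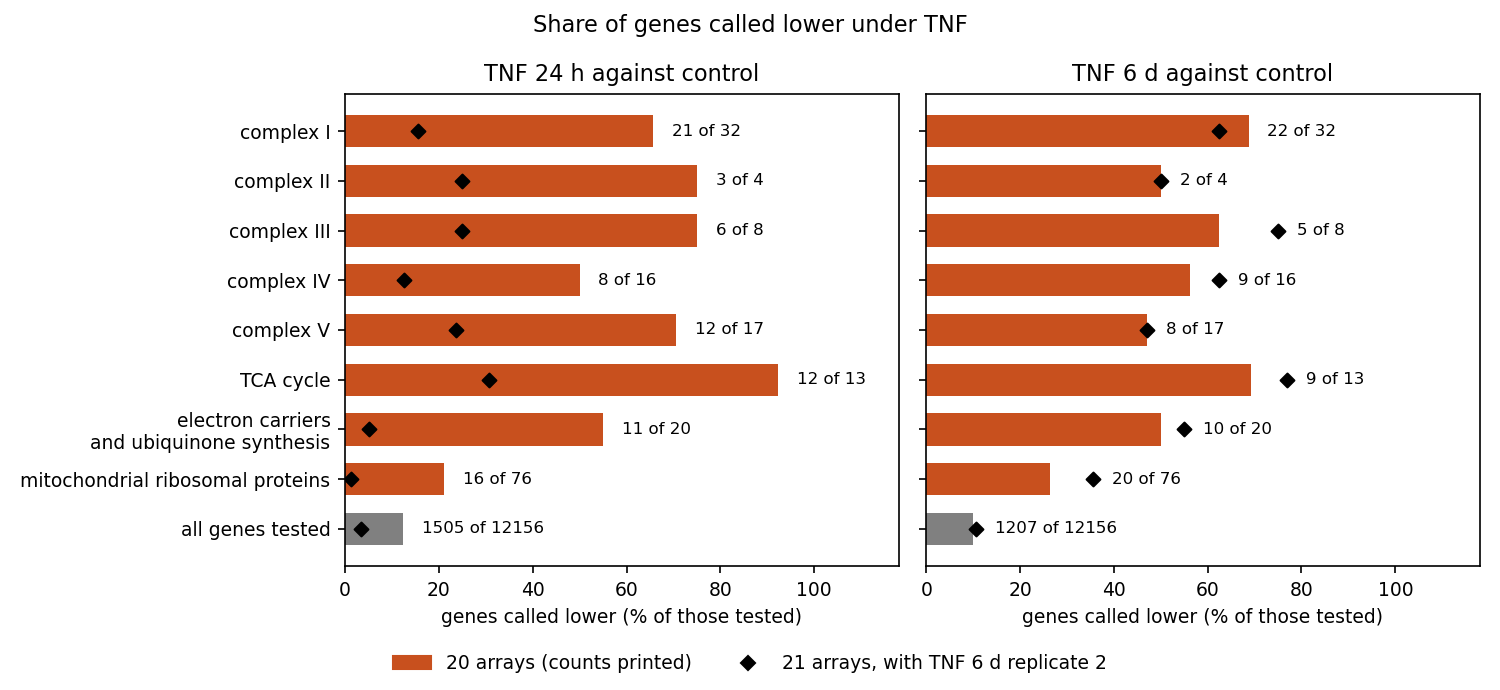
Share of tested genes called lower (horizontal axis, percent) at 24 h and 6 d of TNF against control for the 5 complexes, other mitochondrial gene lists and all genes tested (grey); bars are the fit on 20 arrays, with counts, and diamonds are the fit on 21 arrays. At 24 h the bars of the complexes reach from 8 of 16 to 3 of 4 genes beside 1505 of 12156 over all genes, and their diamonds lie far to the left of the bars.

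Core subunits were again among the larger changes at 6 d of TNF. Ndufs1 lay at 10.94 and 10.93, with 9.11 on replicate 2, against 11.76, 11.67 and 12 in control, and fell by 0.87 (SE 0.12, adjusted p = 1.38e-05 by limma). Ndufv1 lay at 11.82 on both arrays, with 12.54 on replicate 2, against 12.52, 12.59 and 12.52 in control, and fell by 0.72 (adjusted p = 5.4e-06 by limma). Here replicate 2 matched the control level, whereas for Ndufs1 it was far below all other arrays. Ndufs7 differed most in this way: it fell by 0.53 with 2 arrays (12.31 on each), but replicate 2 read 13.53, above every control array, and the gene was not called with 21 arrays (-0.12, adjusted p = 0.713).

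In the other complexes, Sdha lay at 12.05 and 11.94 at 6 d of TNF, with 10.93 on replicate 2, against 12.56 to 12.89 in control, and fell by 0.68 (SE 0.12, adjusted p = 0.00022 by limma). Sdhb fell by 0.49, while Sdhd (-0.25) and Sdhc (-0.05) were not called. In complex III, Uqcrfs1 fell by 0.61, Uqcrc2 by 0.58 and Uqcrq, a small subunit of the ubiquinone site, by 0.57, and Uqcrc1 (-0.53, adjusted p = 0.0849 by limma) was called only with 21 arrays. Among the widely expressed genes of complex IV, Cox5b and Cox4i1 each fell by 0.39, Cox8a by 0.35, Cox7a2 and Cox6b1 each by 0.31 and Cox6a1 by 0.21. In complex V, Atp5d fell by 0.37 (not called with 21 arrays) and Atp5e by 0.33, while Atp5a1 (-0.49, adjusted p = 0.0863 by limma) and Atp5b (-0.43, adjusted p = 0.0709) were called only with 21 arrays. Between 6 d and 24 h of TNF, 3 of the 79 genes were lower and 0 higher, against 9.2% of all genes called (5.09% lower and 4.1% higher), namely Cox7a1, Ndufb1 and Ndufv1. With 21 arrays 3 were lower and 0 higher, against 4.78% and 1.21%, and 2 genes were lower in both fits. A second probe set of Ndufv1, equally bright, had a change of 0.08 between these times, against -0.29 for the one used.

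The falls under TNF came together with lower fat cell markers. Of 9 tested adipocyte markers, 8 were lower at 24 h of TNF (median -0.63), and at 6 d 6 of 9 were lower (median -0.71), while under Dex 1 of 9 was lower at 24 h and 2 of 9 at 6 d. Of 7 tested preadipocyte markers, 2 were higher and 1 lower at 24 h of TNF, against 13.2% and 12.4% of all genes. At 6 d of TNF 3 were higher, against 10.5%, among them Pdgfra at a mean of 13.18, against 11.33 in control. The macrophage receptor gene Cd14 averaged 9.11 at 6 d of TNF, against 6.6 in control. Cd68 averaged 5.48 against 5.21 and Csf1r 6.5 against 6.45, while Adgre1, Ptprc, Itgam and Mrc1 were below the threshold. The part of these markers in the changes of the subunit genes was not tested.

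Under TNF, Cox7a1 and Cox8b were called lower at 6 d. At 24 h they were not called in the main fit, but both were lower without replicate 3. Cox7a1 lay at 10.34, 10.95 and 11.09 at 24 h of TNF, against 11.27, 11.48 and 11.17 in control, and was not called (-0.51, adjusted p = 0.0554 by limma), but without replicate 3 it was lower (-0.66, adjusted p = 0.0247). At 6 d of TNF it lay at 8.79 and 9, with 6.57 on replicate 2, and was 5.33-fold lower than control (log2 change -2.41, SE 0.21, adjusted p = 9.03e-08 by limma). It was lower at 6 d than at 24 h of TNF by -1.90 (adjusted p = 5.2e-06), and this call held with 21 arrays. Cox8b was not called at 24 h of TNF (-0.18), but without replicate 3 it was lower (-0.29, adjusted p = 0.00631 by limma). At 6 d of TNF Cox8b fell by 0.48 (adjusted p = 0.00105 by limma), with levels of 12.56 and 12.6 and of 11.93 on replicate 2.

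**Figure D5:**
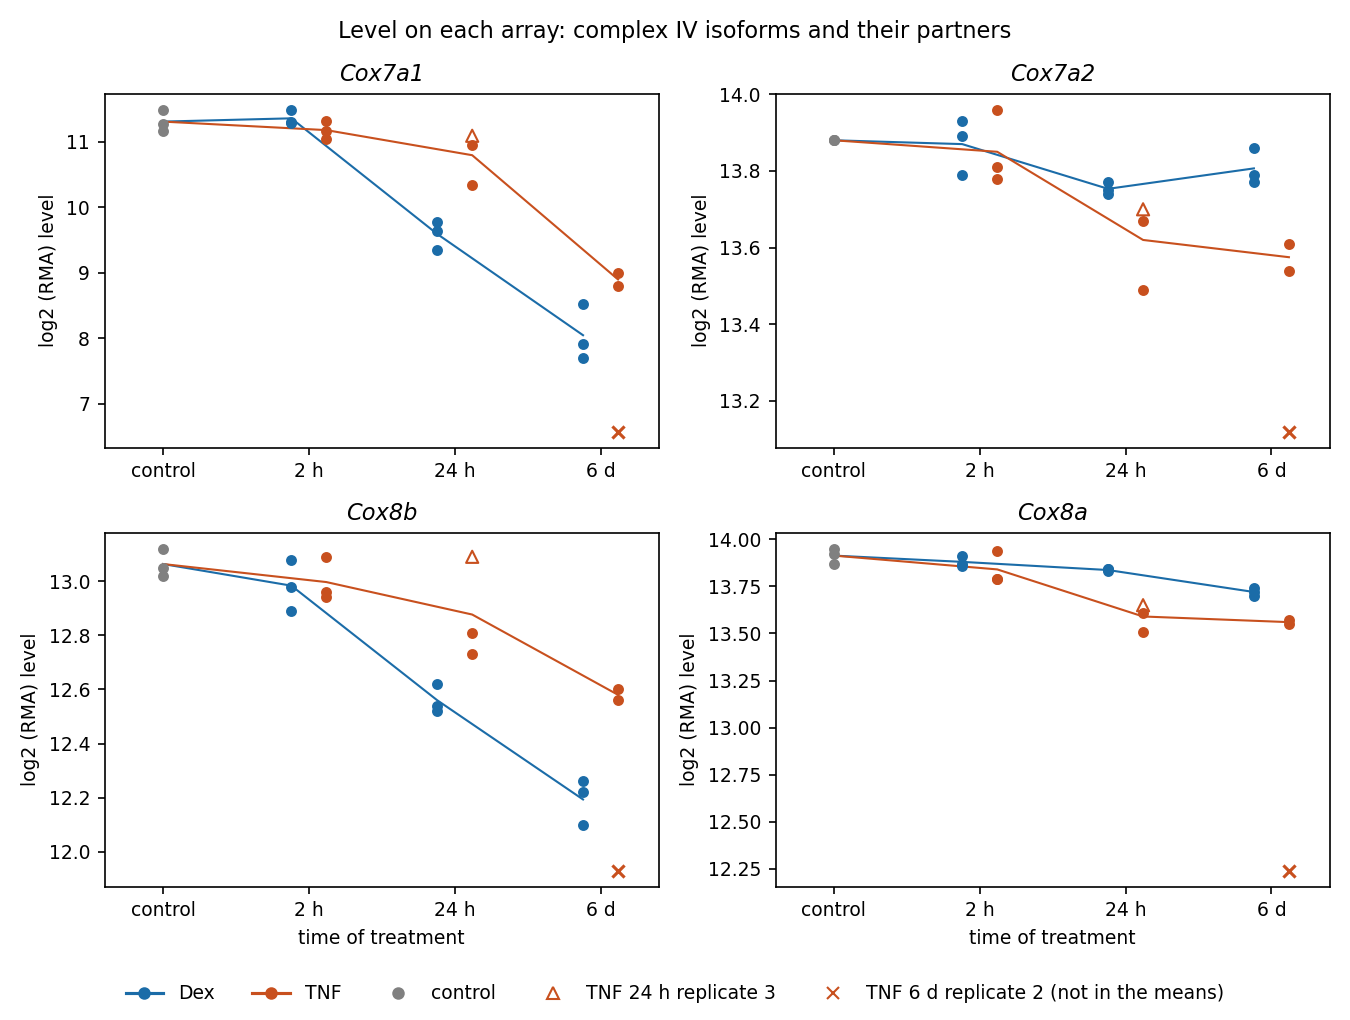
Log2 (RMA) level (vertical axis) of Cox7a1, Cox8b and their widely expressed partners Cox7a2 and Cox8a on every array, by time of treatment (horizontal axis), with lines through group means and symbols as in the plot of core subunits. Cox7a1 reaches 7.7 to 8.52 at 6 d of Dex and 8.79 and 9 at 6 d of TNF. Cox7a2 lies between 13.54 and 13.96 on all arrays except TNF 24 h replicate 1 (13.49) and TNF 6 d replicate 2 (13.12). It was called lower at 24 h (-0.26) and 6 d (-0.31) of TNF.

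Set against their partners on the same array, Cox7a1 and Cox8b were lower on every later Dex array than on every control array. The difference Cox7a1 minus Cox7a2 averaged -4.16 ± 0.21 at 24 h and -5.76 ± 0.47 at 6 d of Dex, against -2.57 ± 0.16 in control (SD, n = 3 each), shifts of -1.59 and -3.19. Both had an exact two-sided permutation p of 0.1, the smallest that 3 against 3 arrays allow, and the adjusted value over 36 such comparisons was 0.36. At 24 h of TNF the shift was -0.26 and the groups overlapped (exact permutation p = 0.2). By 6 d of TNF it was -2.11, with no overlap (exact permutation p = 0.2, the smallest that 2 against 3 allow), and -2.73 with replicate 2. Only the shifts are read, since the probe sets differ.

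The difference Cox8b minus Cox8a averaged -1.27 ± 0.05 at 24 h and -1.53 ± 0.11 at 6 d of Dex, against -0.85 ± 0.09 in control (SD, n = 3 each). The shifts were -0.42 and -0.68, each with an exact permutation p of 0.1. Under TNF the shifts were 0.14 at 24 h and -0.13 at 6 d, and the shift at 6 d was 0.1 with replicate 2, so its direction depended on that array. For the muscle form Cox6a2, the difference Cox6a2 minus Cox6a1 shifted by 0.09 at 24 h and 0.29 at 6 d of Dex, with overlapping groups. At 24 h of TNF it shifted by 0.63, with an SD of 0.45 between the treated arrays. Cox4i2, the form of lung and low oxygen, and Cox6b2 and Cox8c, forms of testis, were called in none of the 6 comparisons with control. Their probe sets were dim in control, at 6.5, 5.21 (below the threshold) and 7.61, so this does not show that they stayed unchanged.

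Of the 4 muscle markers tested, Mb, which encodes the oxygen-binding protein myoglobin, was the one called lower at the later times, while Ckm, Acta1 and Tnnc1 were called at none of them (changes of -0.38 to 0.13). It lay at 5.85 to 6.09 at 24 h and 5.4 to 5.84 at 6 d of Dex, at 6.16 to 6.98 at 24 h of TNF and at 5.47 and 5.7 at 6 d of TNF (5.12 on replicate 2), against 7.48 to 8.26 in control. Its changes were -1.89 and -2.26 under Dex and -1.35 and -2.24 under TNF, all called. Cidea, a lipid droplet protein of brown fat, averaged 7.05 at 24 h of Dex and 5.61 at 24 h of TNF, against 6.47 in control. At 6 d it averaged 6.88 under Dex and 4.47 under TNF, the latter below the threshold. It was higher in Dex-treated than in TNF-treated cells at 24 h by 1.44 (adjusted p = 2.12e-06 by limma), also with 21 arrays. Of the 5 brown and beige fat markers tested, 1 was higher at 24 h of Dex, against 6.39% of all genes. At 24 h of TNF 2 of them were lower, against 12.4%, and 0 were called in either comparison with 21 arrays. Dio2 and Prdm16 were called in neither, and Ppargc1a averaged 10.51 at 6 d of TNF, against 9.84 in control (higher, but not called with 21 arrays).

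Set directly against each other, Dex-treated cells had higher levels of many subunit genes than TNF-treated cells at 24 h and 6 d. Among the genes called at these times, Cox7a1 and Cox8b were the exceptions. At 2 h 1 gene, Cox7c, was higher and 0 were lower, against 14.8% of all genes called (7.13% higher and 7.63% lower), and 0 were called with 21 arrays, against 5.97%. At 24 h 41 were higher under Dex and 2 lower, against 33% of all genes called (16.9% higher and 16.1% lower), and with 21 arrays 10 were higher and 0 lower, against 5.89% and 7.56%. Without TNF 24 h replicate 3, 52 were higher and 2 lower, against 16.9% and 14.5% of all genes. At 6 d 37 were higher and 2 lower, against 30.1% of all genes called (14.4% higher and 15.8% lower), and with 21 arrays 35 were higher and 0 lower, against 15.9% and 7.81%. The numbers higher in complexes I to V were 17, 2, 7, 6 and 8 at 24 h and 18, 2, 6, 7 and 3 at 6 d.

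The genes lower under Dex than under TNF were Cox7a1 and Cox8b at both times. Cox7a1 differed by -1.20 (adjusted p = 4.84e-05 by limma) at 24 h and -0.85 (adjusted p = 0.00443) at 6 d, and Cox8b by -0.32 (adjusted p = 0.00698) and -0.39 (adjusted p = 0.00411). None of these was called with 21 arrays. The larger differences the other way at 24 h were those of Uqcrc2 (1.15), Cox7c (1.05), Atp5a1 (1.04) and Ndufs1 (1.03), and at 6 d those of Ndufs1 (0.98), Ndufv1 (0.91), Sdha (0.79) and Uqcrc2 (0.78). At 24 h Uqcrc2 lay at 12.84, 12.82 and 12.86 under Dex and at 12.03, 12.04 and 11 under TNF, and without TNF 24 h replicate 3 the difference was 0.81 (adjusted p = 8.2e-09 by limma). Of the other probe sets of genes called at 24 h, 37 of 40 moved the same way, the exceptions being those of Atp5a1 (-0.04, with a control level of 8.26), Ndufb2 (-0.09) and Uqcrq (-0.01). At 6 d Ndufv1 lay at 12.7, 12.73 and 12.77 under Dex and at 11.82 on both TNF arrays. This comparison does not use the control group.

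Other genes of the pathway, from lists chosen by function, moved with the subunits to different degrees. Among them, 12 of 13 citric acid cycle genes were lower and 1 higher at 24 h of TNF (median -0.60), as were 11 of 20 genes of electron carriers and ubiquinone synthesis, with 1 higher (median -0.40). Idh3a, a subunit of the NAD-dependent isocitrate dehydrogenase, fell by 1.31, Dld, a subunit shared by dehydrogenase complexes, by 1.10, and Etfdh, which passes electrons of fatty acid oxidation to ubiquinone, by 0.94. Cytochrome c, encoded by Cycs, fell by 0.40. Of 76 mitochondrial ribosomal protein genes, 16 (21.1%) were lower and 1 higher (median -0.06), beside 12.4% of all genes lower. With 21 arrays the numbers lower were 4, 1 and 1 for these lists, against 3.27% of all genes. Without replicate 3 they were 11, 10 and 17, against 11.7% of all genes. By 6 d of TNF 9 of 13, 10 of 20 and 20 of 76 were lower, against 9.93% of all genes.

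Assembly factors, which build the complexes without being part of them, had the following counts at 24 h of TNF: 6 of 17 lower for complex I, 1 of 4 for complex II, 3 of 5 for complex III, 4 of 22 (18.2%) for complex IV and 3 of 5 for complex V, beside 12.4% of all genes. Uqcc2, an assembly factor of complex III, was higher (0.62). Cyc1 and Ndufab1, subunits of complexes III and I whose symbols the rule does not take, fell by 0.81 and 0.45. Under Dex the citric acid cycle list had 0 of 13 genes called at 24 h and at 6 d, against 13.2% and 24% of all genes. At 6 d of Dex 7 of 22 assembly factors of complex IV were lower, against 13.5% of all genes. They were led by Higd1a (-0.67), Cox19 (-0.62) and Cox20 (-0.56).

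Regulators of mitochondrial genes changed at 2 h, when 0 subunit genes were called. At 2 h of TNF, Ppargc1b, a coactivator of respiratory genes, fell by 1.98, Nrip1, a corepressor of them, fell by 1.91, Esrra, the estrogen-related receptor alpha, fell by 0.82, and Gabpb1, a subunit of the ETS factor GABP, rose by 2.06. All 4 were called with 20 and with 21 arrays. At 2 h of Dex, Ppargc1a, the related coactivator PGC-1 alpha, fell by 1.49 (not called with 21 arrays) and Ppargc1b by 1.23. Of 17 tested regulators, 2 were higher and 3 lower at 2 h of Dex, against 7.12% of all genes called, and 2 were higher and 4 lower at 2 h of TNF, against 10.7%. Later, 1 was higher and 4 were lower at 24 h of TNF, against 25.6% of all genes called, with Esrra lower by 0.60, and at 6 d of TNF Esrra fell by 0.65.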

How the data were processed

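Gene expression was measured on 21 arrays of a 3-prime expression platform, 3 in each of 7 groups. The authors deposited log2 values normalised by RMA, per the submitters' processing notes, and the arrays' number limits the precision. Of 45101 probe sets, 34958 list 1 gene symbol, 932 several and 9211 none. The probe set with the highest mean stood for each gene. A gene was tested where at least 3 arrays exceeded 5.34, the median of all values. Groups were compared with limma 3.58.1 in R 4.3.3 (trended empirical Bayes, 1 fit of 20 arrays without TNF 6 d replicate 2, 13 residual degrees of freedom), with Benjamini-Hochberg adjustment over 12156 genes and a threshold of 0.05. The scripts were tested on simulated data. Isoform pairs were compared with exact two-sided permutation tests. Isoforms, their partners and core subunits were always named, with up to 10 called genes a direction by size of change, the largest in each complex and up to 4 in each list; the remaining subunits were named after their values were seen, to complete a complex. Of the comparisons with 3 numbered pairs, same-numbered arrays deviated together in 2, Dex 24 h against control and Dex against TNF at 24 h, where every correlation was above 0.1 (0.233 to 0.447 and 0.207 to 0.27). Motifs were counted in RefSeq start-site windows of GRCm38.p6. Alternatives covered the arrays, filters, normalisation, probe sets, variance moderation, RNA quality and replicate numbers. The genes and lists were chosen with earlier results of these data known.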

Additional observations from a re-analysis of the deposited data

Results flagged for a closer look

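For 10 differences between Dex and TNF, every Dex array of the main fit lay above every control array and every TNF array below them. The difference itself passed the test (limma, adjusted over all genes tested). This leaves out TNF 6 d replicate 2, which read 13.53 for Ndufs7, above every control array, and 12.54 for Ndufv1, within the control range. At 24 h, the difference Dex minus TNF was 1.15 log2 for Uqcrc2 (0.09 under Dex and -1.06 under TNF, adjusted p = 1.85e-05), and 0.81 without TNF 24 h replicate 3. It was 1.05 for Cox7c (0.32 and -0.73), a dim probe set, 0.61 for Ndufs3 (0.12 and -0.49), 0.56 for Ndufs7 (0.18 and -0.37), 0.50 for Ndufa10 (0.09 and -0.42) and 0.30 for Ndufc2 (0.04 and -0.26). Without that array these were 1.07, 0.51, 0.72, 0.46 and 0.26 in the same order. At 6 d, it was 0.91 for Ndufv1 (0.19 and -0.72, adjusted p = 9.67e-08), 0.78 for Uqcrc2 (0.20 and -0.58), 0.72 for Ndufs7 (0.19 and -0.53) and 0.25 for Atp5h (0.09 and -0.16). With TNF 6 d replicate 2 these were 0.67, 1.34, 0.31 and 0.27, and Ndufs7 was not called (adjusted p = 0.315). The changes under Dex were themselves not called for these genes, and both treatments share the control arrays.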

How the results depend on the processing

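No named call changed sign under the alternatives run. The complex medians under Dex, near 0, did in places (complexes II and III at 24 h, I and II at 6 d), as did the shift of Cox8b minus Cox8a at 6 d of TNF. Of the 108 named calls, 54 were weaker with all 21 arrays and 29 with cyclic loess. In fits of only the 2 groups compared 19 were weaker, and with median centring 16. With all 21 arrays, the numbers of subunit genes called fell to 1 at 24 h and 3 at 6 d of Dex, 14 at 24 h of TNF, 0 and 10 for Dex against TNF at 2 h and 24 h, and 0 for Dex 6 d against 24 h. The complex medians at 6 d of TNF were then -0.59, -0.98, -0.82, -0.50 and -0.46 (I to V), and Cox7a1 minus Cox7a2 shifted by -2.73 and Cox8b minus Cox8a by 0.1 (cyclic loess -0.14, means over probe sets -0.17, and -0.17 to -0.08 without 1 array). Array weights, whose estimation stopped before converging, gave 3, 29 and 38 calls for Dex at 2 h, 24 h and 6 d, 27 for TNF at 2 h, 11, 67 and 61 for Dex against TNF, and 24 and 25 between 6 d and 24 h of Dex and TNF. Cyclic loess gave 34 and 25 calls at 24 h and 6 d of TNF and 23 for Dex against TNF at 6 d. Over all genes it called 3273, 2644 and 3737 in these comparisons, beside 3111, 2488 and 3662 in the main fit. The complex medians (I to V) were -0.18, -0.43, -0.30, -0.12 and -0.16 at 24 h and -0.23, -0.28, -0.41, -0.21 and -0.14 at 6 d of TNF. At 6 d of Dex they were 0.04 (complex I) and -0.04 (complex IV). Median centring gave 7 calls at 6 d of Dex and 1 between 6 d and 24 h of each treatment. Over all genes it called 3034 at 6 d of Dex, beside 2913 in the main fit. Between 6 d and 24 h of Dex and TNF it called 558 and 1161 genes, beside 547 and 1118. Its medians at 24 h of TNF were -0.35 (I), -0.31 (IV) and -0.34 (V). Without the variance trend there were 7 calls at 6 d of Dex and 24 for Dex against TNF at 6 d. Fits of only the 2 groups compared gave 31 at 24 h of TNF, 0 for Dex against TNF at 2 h and 1 for TNF 6 d against 24 h. The 3-prime minus 5-prime covariate gave 1 at 2 h of TNF and 4 for Dex 6 d against 24 h. Means over probe sets gave 3 calls for Dex against TNF at 2 h, and medians of -0.34 (II) at 24 h of TNF, -0.19 (II), -0.42 (III) and -0.25 (IV) at 6 d of TNF and 0.04 (II) at 6 d of Dex. Without the 4 arrays above 0.5 in 3-prime minus 5-prime difference, chosen after seeing the data, there were 13 and 20 calls at 24 h and 6 d of Dex, 2 at 2 h of TNF, 4 for Dex 6 d against 24 h and 7 for TNF 6 d against 24 h. The cause was not tested in any of these. Numbers over all genes are not given here for the alternatives after median centring.

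Leaving out 1 array at a time gave 0 to 1, 3 to 9 and 7 to 12 calls for Dex at 2 h, 24 h and 6 d, 0 to 1, 45 to 59 and 25 to 44 for TNF, 0 to 1, 37 to 54 and 18 to 34 for Dex against TNF, 1 to 2 for Dex 6 d against 24 h and 1 to 6 for TNF 6 d against 24 h. The low counts came without control replicate 1 for Dex and without 1 TNF 6 d array for TNF 6 d. With the replicate number as a block, the counts were 0, 6 and 13 for Dex, 0, 55 and 47 for TNF, 1, 44 and 38 for Dex against TNF, and 2 and 3 between 6 d and 24 h. The replicate block changed no count by over 1.5 times, and 2 of 108 named calls were lost.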

Other observations

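Of 20 genes of electron carriers and ubiquinone synthesis, 5 were higher and 2 lower at 6 d of Dex, against 10.4% and 13.5% of all genes, and with 21 arrays 2 were higher and 0 lower. Prodh, proline dehydrogenase, averaged 6.74 at 6 d of Dex, against 5.78 in control (log2 change 0.96, adjusted p = 3.38e-05 by limma). Gpd2, the mitochondrial glycerol 3-phosphate dehydrogenase, averaged 11.24 against 10.29 in control (0.95, adjusted p = 0.000233), and both genes were also higher at 24 h of Dex. The others called higher at 6 d were Coq8a (0.60), Dhodh (0.49) and Sqor (0.47), while Etfdh (-0.22) was not called. Gpd2 was lower at 24 h of TNF (-0.55) after being higher at 2 h (0.69), neither of which was called with 21 arrays.

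Of 4 genes of proton leak and nucleotide exchange, Ucp3, an uncoupling protein relative of muscle and fat, fell by 1.38 at 2 h, 0.59 at 24 h and 0.51 at 6 d of TNF, called with 20 and 21 arrays. Slc25a3, the mitochondrial phosphate carrier that supplies complex V, fell by 0.58 at 24 h of TNF (adjusted p = 2.35e-05 by limma). Ndufaf4, an assembly factor of complex I, was higher at 6 d of Dex (0.57) and Sdhaf4, one of complex II, was lower (-0.60, not called with 21 arrays).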
